A study of Rattus norvegicus with 12 samples.

Results

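The genes followed here are 10 genes of the sirtuins and of NAD metabolism, taken from the count table by their symbols: Sirt1, Sirt3, Sirt5, Sirt6, Nampt, Nmnat1, Nmnat3, Nmrk2, Parp1 and Cd38. All 10 were among the 30560 genes listed, and all 10 were among the 18182 genes with at least 10 reads in total, which were tested. RNA-seq was performed on left ventricular sections from 12 male Wistar rats, with 1 library per rat. Sham rats (n = 4) underwent thoracotomy at 7 weeks of age with no suture around the coronary artery and received vehicle (carboxymethylcellulose). MI rats (n = 4) had a myocardial infarction from permanent ligation of the left anterior descending coronary artery at the same age and received the same vehicle. MI + UA rats (n = 4) had the same ligation and received urolithin A (UA), a gut metabolite of ellagitannins known as a mitophagy inducer, by daily gavage for 8 weeks. The series text gives the gavage as 50 mg/ml from 24 hours after surgery, while other parts of the study's text differ in dose and start. The RNA came from 20 µm formalin-fixed, paraffin-embedded sections of the middle block of the ventricle. Rat_66 was labelled as UA-treated but is listed among vehicle-treated MI rats in the study's supplement, and it was kept here as MI + UA. A further MI + UA library that the study set aside was not analysed here.

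NAD carries electrons between metabolic pathways as NAD and NADH, and it is also consumed as a substrate by enzymes that cleave off its nicotinamide. Sirtuins use it to remove acyl groups from proteins, with Sirt1 and Sirt6 in the nucleus and Sirt3 and Sirt5 in mitochondria, while Parp1 and Cd38 consume it for ADP-ribosylation and for hydrolysis. The heart rebuilds NAD mainly by salvage: Nampt turns nicotinamide into nicotinamide mononucleotide (NMN), Nmrk2 makes NMN from nicotinamide riboside, and the Nmnat enzymes turn NMN into NAD.

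Reads on genes numbered between 6228706 and 8958828 per Sham rat, between 6829591 and 12743184 per MI rat and between 6819444 and 19031695 per MI + UA rat, and between 50.15% and 58.55% of them fell on the 13 mitochondrially encoded genes. The share of counted reads that lay on genes was 46.85% to 48.35% in Sham, 43.27% to 44.81% in MI and 42.9% to 47.17% in MI + UA, so that Sham and MI did not overlap, and its part in the results was not tested. Levels are given as CPM, counts scaled to a library of 1000000 reads, with TMM library sizes, which scale libraries on the bulk of genes. Values per rat are given in the order Rat_12_1, Rat_17, Rat_32 and Rat_38 for Sham, Rat_36, Rat_57, Rat_61 and Rat_89 for MI, and Rat_29, Rat_58, Rat_64 and Rat_66 for MI + UA. Differences are log2 fold changes with their standard error (SE) from edgeR's quasi-likelihood test over the 3 groups, with p-values adjusted by Benjamini-Hochberg over all 18182 genes and a threshold of 0.05. CPM does not account for gene length, so levels were compared between groups and not between genes. Nothing in the sources used here gives a batch, and each rat is a separate animal.

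In MI compared with Sham hearts, 4 of the 10 genes fell and none rose, with 2 to 5 called when 1 rat was left out. The 4 were the mitochondrial sirtuins Sirt3 and Sirt5 and the NMN-producing enzymes Nampt, which fell by 22%, and Nmrk2, which fell by 33.8%. In the same comparison 11.4% of all tested genes passed the threshold, 5.53% lower and 5.82% higher, so 40% lower is above the background. Among the 9481 genes within the average expression range of the 10 genes, 16.2% passed. These 4 genes were also the ones of the 10 whose MI rats all lay under all Sham rats, which held for 7.56% of all tested genes. The 10 log2 fold changes had a median of -0.40, against 0.026 over all tested genes. In counts simulated for MI vs Sham, 39% of genes with a log2 change of 0.5 and 89% of genes with a change of 1 were called. Only 100 genes of 17883 were changed at each size, picked among genes with more reads. The shares may therefore differ in the real comparison, and a gene that missed the threshold may still have changed. No gene of the 10 passed in MI + UA compared with MI, where 0 of the 18182 tested genes passed (0%) with edgeR, and DESeq2 also called 0. Without the filter on low counts, edgeR called 3 of 22587 genes, none of them among the 10. In MI + UA compared with Sham, Sirt5 and Nampt were lower, 2 of 10, against 9.44% of all tested genes (4.27% lower and 5.16% higher). Sirt3, Sirt5, Nampt and Nmrk2 lay under all Sham rats in every MI + UA rat, against 6.46% of all tested genes. The 3 comparisons share rats: the MI rats enter the first and the second, and the third uses the Sham rats of the first and the MI + UA rats of the second.

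Markers of cell types moved with the same groups. Between MI and Sham, 9 of the 9 tested cardiomyocyte markers were lower (median log2 fold change -0.43). Their summed level was 45732 to 51947 CPM in Sham, 31732 to 37555 CPM in MI and 33419 to 44482 CPM in MI + UA. Most of their reads were on Ttn (3555096 in total, with 478160 on Myh6, the next), so the sum mainly follows Ttn. Of the fibroblast markers 8 of 10 were higher in MI (median 0.90; 1224 to 1530 CPM in Sham, 2295 to 3729 CPM in MI and 2335 to 3821 CPM in MI + UA). Of the macrophage markers 8 of 10 were higher (median 0.89; 91.0 to 106 CPM in Sham, 161 to 216 CPM in MI and 146 to 228 CPM in MI + UA). None of the markers listed for these 3 cell types was at 0 in any library. In such bulk sections, fewer cells of a type and less RNA per cell cannot be told apart, and the part of the cell makeup in the results that follow was not tested. Smooth muscle and pericyte markers were mixed, with 4 higher and 1 lower of 10, and 1 of 10 endothelial markers was lower. No lymphocyte marker (0 of 9) and no adipocyte marker (0 of 5) passed between MI and Sham, and the adipocyte hormone Adipoq was at 0 in 9 of the 12 libraries.

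**Figure D1:**
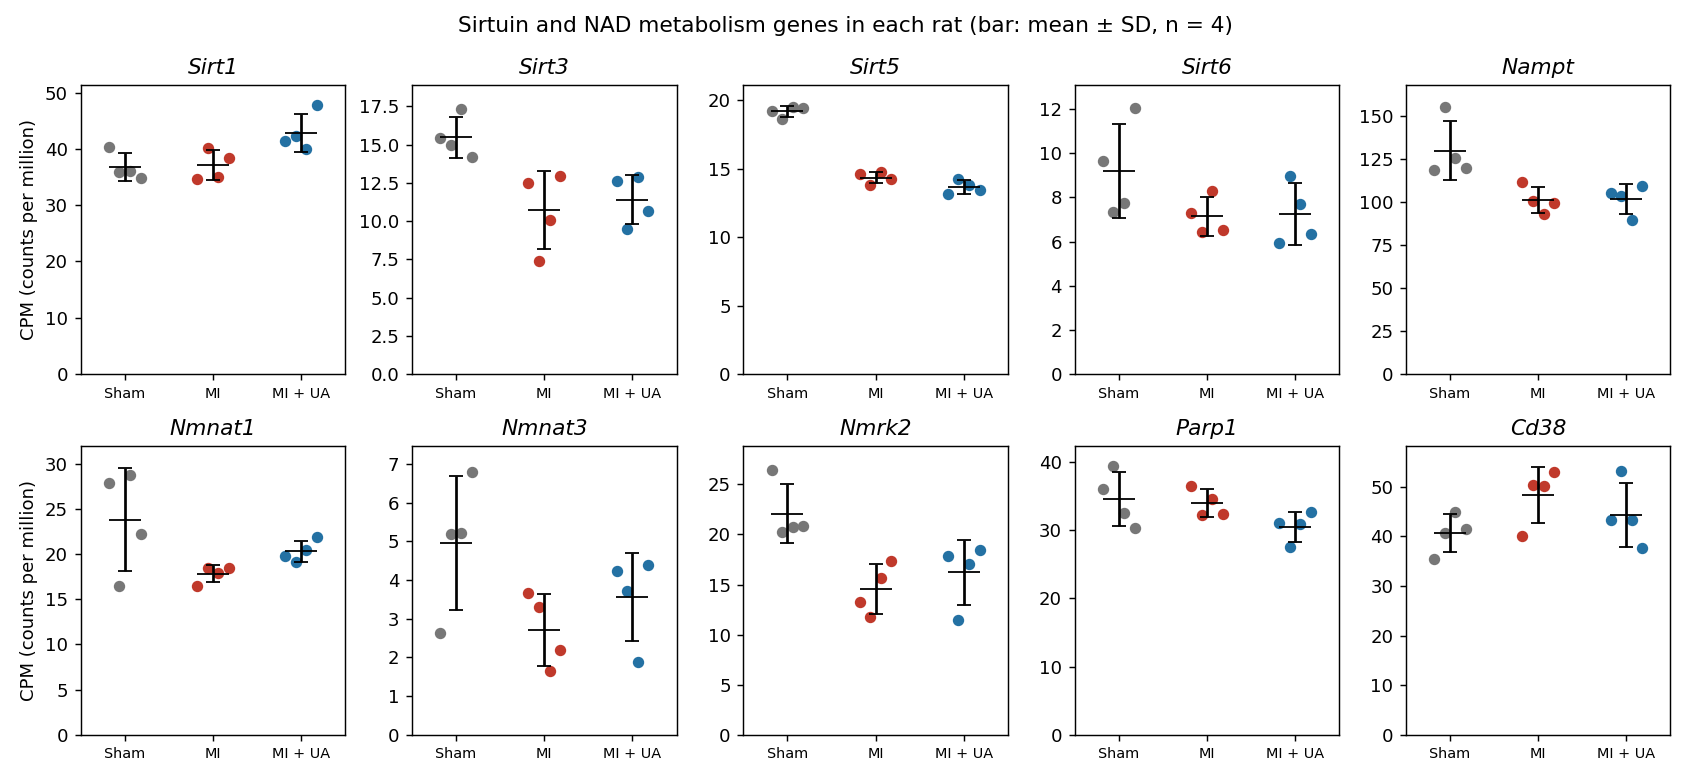
CPM of the 10 genes in each rat (y axis from 0, a separate scale per gene) for Sham, MI and MI + UA, with 1 point per rat and bars for the mean ± SD (n = 4). Sirt3, Sirt5, Nampt and Nmrk2 lay lower in all 4 MI rats than in any Sham rat, and the MI + UA rats of these 4 genes overlapped the MI rats.

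Of the 4 genes that fell among the 10, Nmrk2, the muscle-enriched nicotinamide riboside kinase, had the largest log2 fold change. Its level in the 4 Sham rats was 26.5, 20.2, 20.7 and 20.9 CPM, in the 4 MI rats 13.3, 11.8, 15.7 and 17.4 CPM, and in the 4 MI + UA rats 17.9, 11.4, 17.1 and 18.5 CPM. All MI and all MI + UA rats lay under the lowest Sham rat, and the MI and MI + UA rats overlapped. Between MI and Sham the log2 fold change was -0.59 (SE 0.15, edgeR adjusted p = 0.012), and between MI + UA and Sham it was -0.43 (SE 0.15, edgeR adjusted p = 0.0732). The fall in MI rested in part on Rat_12_1, the highest Sham rat, since without it the log2 fold change was -0.49 with an edgeR adjusted p of 0.054.

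Nampt, the rate-limiting enzyme of salvage from nicotinamide, was lower in both infarcted groups. The Sham rats had 118, 155, 126 and 120.1 CPM, the MI rats 112, 101, 93.0 and 99.4 CPM, and the MI + UA rats 105, 104, 89.3 and 109 CPM. Every infarcted rat lay under every Sham rat, although the gap between the lowest Sham rat and the highest MI rat was small. Nampt had a log2 fold change of -0.36 (SE 0.10, edgeR adjusted p = 0.0172) between MI and Sham and -0.35 (SE 0.10, edgeR adjusted p = 0.0237) between MI + UA and Sham. The call in MI was lost without Rat_17, the highest Sham rat (log2 fold change -0.26, edgeR adjusted p = 0.0835), and without Rat_61, the lowest MI rat (edgeR adjusted p = 0.0657). The call in MI + UA was lost without Rat_17 (edgeR adjusted p = 0.109), without Rat_29 (0.0508) and without Rat_64 (0.0878).

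The enzymes that turn NMN into NAD, Nmnat1 in the nucleus and Nmnat3 described in mitochondria, did not pass in any comparison of the main test. Nmnat1 measured 27.85, 16.5, 28.8 and 22.2 CPM in Sham, 16.45, 18.5, 17.96 and 18.4 CPM in MI and 19.8, 19.1, 20.4 and 21.9 CPM in MI + UA. Rat_17 of the Sham group lay at the level of the lowest MI rat, while the other 3 Sham rats lay above all MI rats. Its log2 fold change between MI and Sham was -0.42 (SE 0.14, edgeR adjusted p = 0.0507), just short of the threshold, and it passed without Rat_17 (-0.56, edgeR adjusted p = 0.00425). Nmnat1 was also the 1 gene of the 10 whose MI + UA rats all lay above all MI rats, which held for 1.18% of all tested genes. That difference was 0.19 on the log2 scale (SE 0.13, unadjusted p = 0.159 and adjusted p = 1 with edgeR). Rat_66, whose group differs between the sources, was the highest of these rats, and counted as MI it ended the separation and left a difference of 0.081. Nmnat3 had few reads, 14 to 78 per library, and its level was 4.96 ± 1.72 CPM in Sham, 2.70 ± 0.930 CPM in MI and 3.56 ± 1.15 CPM in MI + UA (SD, n = 4). The groups overlapped and the log2 fold change between MI and Sham of -0.88 (SE 0.31) had an edgeR adjusted p of 0.0731. It passed without Rat_12_1 (log2 fold change -1.09, edgeR adjusted p = 0.0214) and without Rat_36 (log2 fold change -1.10, edgeR adjusted p = 0.0422).

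Of the sirtuins, Sirt5, a mitochondrial enzyme that removes succinyl and malonyl groups, had the tightest groups, on 88 to 239 reads per library. That spread was not compared with the error of counting so few reads. Sham rats had 19.2, 18.6, 19.5 and 19.4 CPM, MI rats 14.6, 13.8, 14.7 and 14.3 CPM, and MI + UA rats 13.1, 14.3, 13.8 and 13.4 CPM. The Sham rats stood well apart from all 8 infarcted rats, and the MI and MI + UA rats overlapped. Sirt5 had a log2 fold change of -0.42 (SE 0.10, edgeR adjusted p = 0.00791) between MI and Sham, -0.49 (SE 0.10, edgeR adjusted p = 0.00262) between MI + UA and Sham, and -0.078 (SE 0.10, edgeR adjusted p = 1) between MI + UA and MI. Both calls against Sham were kept whichever rat was left out.

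Sirt3, the main mitochondrial deacetylase, was lower in MI with more spread between rats. The Sham rats had 15.4, 15.01, 17.3 and 14.2 CPM, the MI rats 12.5, 7.37, 10.1 and 12.95 CPM, and the MI + UA rats 12.6, 9.504, 12.9 and 10.6 CPM. All infarcted rats lay under all Sham rats, and Rat_57 of the MI group, with 47 reads on the gene, was the lowest. Sirt3 had a log2 fold change of -0.50 (SE 0.15, edgeR adjusted p = 0.0419) between MI and Sham and -0.43 (SE 0.15, edgeR adjusted p = 0.0834) between MI + UA and Sham. The call in MI was kept in only 2 of the 8 fits that left out 1 rat, those without Rat_36 and without Rat_89. It was lost without Rat_12_1, Rat_17, Rat_32, Rat_38, Rat_57 or Rat_61, with edgeR adjusted p between 0.0595 and 0.122.

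The nuclear sirtuins Sirt1 and Sirt6 did not pass in any comparison. Sirt1, a deacetylase of transcription factors and histones, had 40.4, 35.9, 36.02 and 34.8 CPM in Sham, 34.6, 40.1, 35.1 and 38.5 CPM in MI and 41.5, 42.3, 40.1 and 47.8 CPM in MI + UA. Sham and MI rats covered nearly the same range, and the MI + UA rats lay above it or, in Rat_64, just under its top, with Rat_66 the highest. Its log2 fold change was 0.0066 between MI and Sham (95% interval -0.18 to 0.20). Between MI + UA and MI it was 0.22 (95% interval 0.032 to 0.40), with an unadjusted p of 0.0239 and an adjusted p of 1 from edgeR, and it was the 1 member of 10 with an unadjusted p under 0.05 there, against 3.79% of all tested genes. Between MI + UA and Sham it was 0.22 (SE 0.09, edgeR adjusted p = 0.14). Counting Rat_66 as an MI rat left 0.071 of the difference between MI + UA and MI. Sirt6, a chromatin-bound deacylase, lay between 7.36 and 12.04 CPM in Sham, between 6.43 and 8.30 CPM in MI and between 5.94 and 8.99 CPM in MI + UA, with a log2 fold change of -0.37 (SE 0.18, edgeR adjusted p = 0.213) between MI and Sham.

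The 2 other NAD consumers also did not pass. Parp1, which builds poly(ADP-ribose) at DNA breaks, measured 34.6 ± 3.96 CPM in Sham, 33.9 ± 2.04 CPM in MI and 30.5 ± 2.18 CPM in MI + UA (SD, n = 4). Its log2 fold change was -0.024 between MI and Sham (95% interval -0.23 to 0.18) and -0.15 between MI + UA and MI (95% interval -0.35 to 0.049). Cd38, an NAD glycohydrolase known from immune and endothelial cells, had 35.5, 40.6, 44.9 and 41.5 CPM in Sham, 40.1, 50.3, 50.0 and 52.96 CPM in MI and 43.2, 53.04, 43.2 and 37.6 CPM in MI + UA. In MI 3 of 4 rats lay above all Sham rats and Rat_36 lay among them. Cd38 had a log2 fold change between MI and Sham of 0.25 (95% interval 0.016 to 0.49, edgeR adjusted p = 0.175), and between MI + UA and MI it was -0.13 (95% interval -0.36 to 0.097, edgeR adjusted p = 1).

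**Figure D2:**
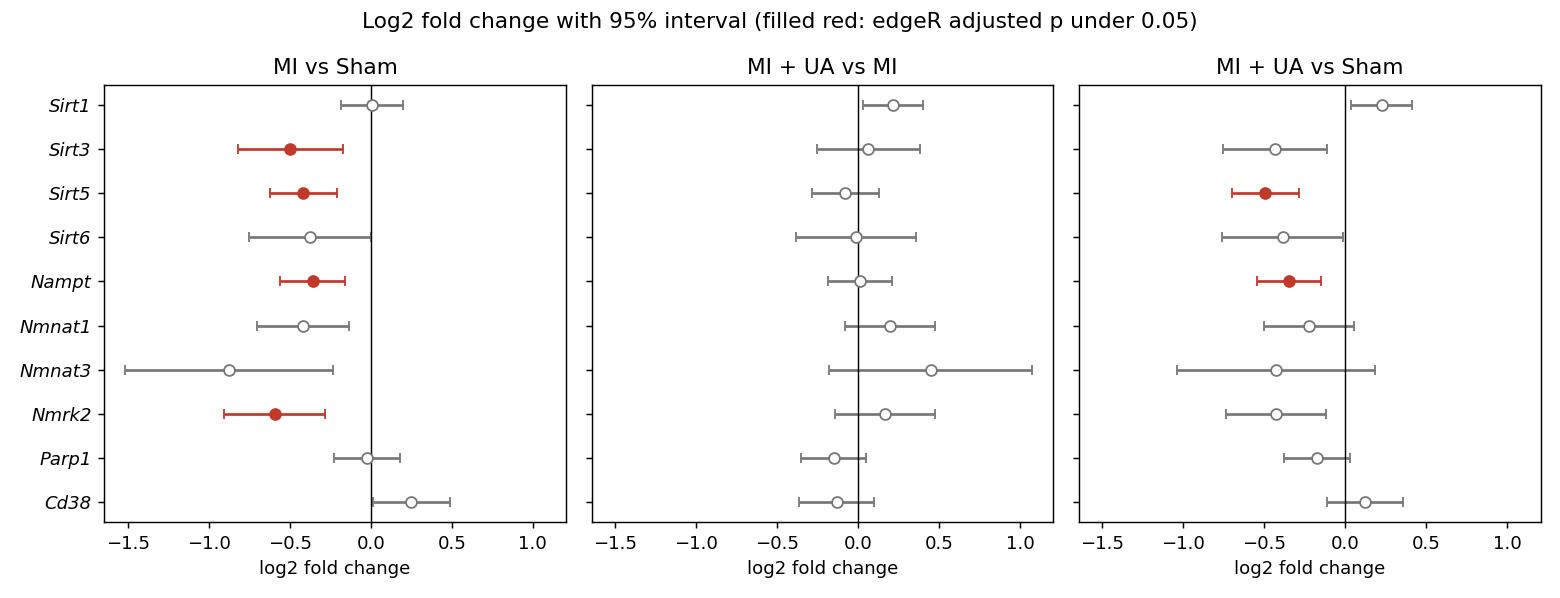
Log2 fold change (x axis) of the 10 genes with its 95% interval, in MI vs Sham, MI + UA vs MI and MI + UA vs Sham, filled red where the edgeR adjusted p was under 0.05. Filled points are Sirt3, Sirt5, Nampt and Nmrk2 on the left and Sirt5 and Nampt on the right, with no filled point for MI + UA vs MI.

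Between MI + UA and MI, 6 of the 10 log2 fold changes were above 0 and 4 below, against 49% of all tested genes below, and they ran from -0.15 for Parp1 to 0.45 for Nmnat3. With Rat_66 counted as MI, the value was 0.13 for Nmnat3 and 0.013 for Nmrk2, which had been 0.16. For the 4 genes that fell in MI, the intervals of this difference were -0.26 to 0.38 for Sirt3, -0.28 to 0.13 for Sirt5, -0.19 to 0.21 for Nampt and -0.14 to 0.47 for Nmrk2. All 4 intervals held 0, and all 4 upper bounds were smaller than the estimated fall between Sham and MI, which has its own error.

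The DNA just before the start of Nmrk2 and of Sirt1 is shown because, of the 10 genes, Nmrk2 had the largest fall that passed in MI vs Sham and Sirt1 had a log2 fold change near 0; the difference between them was not tested. The sequences are the 250 bases before the RefSeq start in the rat build GRCr8. RefSeq windows matched 8 of the 10 genes by symbol, with Nampt and Sirt6 unmatched, and 4 of the 8 windows lay outside the gene's own record (Sirt1, Nmnat1, Nmrk2 and Parp1). Capitals mark exact matches of any of 8 motifs, which were searched on both strands.
Nmrk2, chr7:9165317-9165566, plus strand: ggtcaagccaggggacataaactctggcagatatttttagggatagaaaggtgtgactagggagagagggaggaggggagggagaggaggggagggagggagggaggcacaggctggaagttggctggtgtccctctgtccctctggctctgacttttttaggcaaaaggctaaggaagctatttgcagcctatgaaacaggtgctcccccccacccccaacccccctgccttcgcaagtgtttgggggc
Sirt1, chr20:25305703-25305952, plus strand: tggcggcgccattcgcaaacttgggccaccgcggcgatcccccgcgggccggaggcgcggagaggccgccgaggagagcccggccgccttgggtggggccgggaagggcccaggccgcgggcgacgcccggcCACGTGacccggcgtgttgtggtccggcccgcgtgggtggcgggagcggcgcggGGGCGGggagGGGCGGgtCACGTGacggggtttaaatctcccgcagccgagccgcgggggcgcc
The Nmrk2 window held 1 CpG dinucleotide and 57.2% G and C, and none of the 8 motifs. The Sirt1 window held 40 CpG dinucleotides and 79.6% G and C, against medians of 5 and 51.2% over 33469 promoters. It held the E-box CACGTG 118 and 46 bases before the start and the GC box GGGCGG 64 and 54 bases before it, with no overlap between matches. Of all promoters 5.59% held the E-box and 30.5% the GC box. The other motifs were the nuclear receptor site AAGGTCA (3.99% of promoters), the TATA box TATAAA (12.9%), the NRF1 motif in its 10-letter form (0.762%), the CRE TGACGTCA (1.59%), the TEAD core CATTCC (12.1%) and a 10-letter form of the MEF2 motif (0.114%), and neither window held any of them. The motifs were chosen with the expression results known, and a match here is a description of letters only.

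Other genes of NAD metabolism, together with genes of sirtuin substrates and Sirt1 partners, were followed in 8 lists of 78 genes, of which 72 could be tested. Between MI and Sham 23 fell and 3 rose, or 36.1% of the 72, against the background of 11.4% given above. No gene of the 72 passed between MI + UA and MI (1 had an unadjusted p under 0.05), with 35 log2 fold changes above 0 and 37 below. Of the 12 mitochondrial sirtuin substrates, 11 were above 0 (median 0.083) and 1 below. Of the 12 genes of the NADP(H) and NADH shuttle list, 9 were above 0 (median 0.042) and 3 below. Over all tested genes 49% were below 0, and these directions were not tested. Between MI + UA and Sham 21 of the 72 were lower and 3 higher, or 33.3%, against 9.44% of all tested genes.

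Of the enzymes and carriers that phosphorylate NAD or shuttle NADH across the mitochondrial membrane, 9 of the 12 tested fell between MI and Sham. The 12 had a median log2 fold change of -0.45, while 5.53% of all tested genes were called lower in that comparison. Nadk2, the mitochondrial NAD kinase, lay between 25.8 and 33.2 CPM in Sham and between 15.7 and 19.6 CPM in MI, with a log2 fold change of -0.66 (SE 0.11, edgeR adjusted p = 0.000528). Nnt, which makes NADPH from NADH across the inner membrane, lay between 652 and 710.1 CPM in Sham and between 391 and 482 CPM in MI, with a log2 fold change of -0.62 (SE 0.09, edgeR adjusted p = 7.73e-05). Neither gene's groups overlapped. In the malate-aspartate shuttle, which moves cytosolic NADH electrons into mitochondria, the log2 fold changes were -0.56 for Mdh1, -0.50 for Mdh2, -0.48 for Got1, -0.59 for Got2, -0.43 for Slc25a11, -0.40 for Slc25a12 and -0.37 for Slc25a13, and all 7 passed. The cytosolic NAD kinase Nadk had a log2 fold change of 0.23 that did not pass (edgeR adjusted p = 0.16). Of the glycerol phosphate shuttle, Gpd2 had log2 fold changes of -0.37 in MI vs Sham (edgeR adjusted p = 0.066) and -0.41 in MI + UA vs Sham (edgeR adjusted p = 0.0419), with -0.044 between MI + UA and MI. Gpd1, of the same shuttle, did not pass, with -0.15 in MI vs Sham (edgeR adjusted p = 0.363) and -0.12 in MI + UA vs Sham (edgeR adjusted p = 0.514).

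The mitochondrial proteins that sirtuins are known to deacylate are also encoded by genes that fell. Of the 12 tested, 10 passed between MI and Sham (median log2 fold change -0.56), against 5.53% of all tested genes called lower. Acss1, mitochondrial acetyl-CoA synthetase, fell by 0.655 on the log2 scale, the respiratory subunits Ndufa9 and Sdha by 0.59 and 0.58, the beta-oxidation enzymes Acadvl and Acadl by 0.58 and 0.575, the citric acid cycle enzyme Idh2 by 0.57, and Glud1, Pdha1 and Sod2 by 0.42, 0.40 and 0.35. Ppif, a regulator of the mitochondrial permeability pore, did not pass. The summed cardiomyocyte markers given above lay lower in the same rats, and their part in this was not tested.

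Among the other salvage genes, Naprt, the first enzyme of the route from nicotinic acid, fell and Pnp, which cleaves nucleosides including nicotinamide riboside, rose. Naprt had 6.65, 8.52, 6.06 and 5.96 CPM in Sham, 4.09, 4.08, 3.11 and 2.93 CPM in MI and 4.57, 5.27, 3.52 and 4.84 CPM in MI + UA. All MI rats lay under all Sham rats and the MI + UA rats overlapped the MI rats. Naprt had a log2 fold change of -0.94 (SE 0.20, edgeR adjusted p = 0.00335) between MI and Sham, on 26 to 86 reads per library. Pnp had a log2 fold change of 0.64 (SE 0.14, edgeR adjusted p = 0.00385). The other sirtuins Sirt2, Sirt4 and Sirt7 did not pass (0 of 3).

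Of the genes that dispose of nicotinamide or cleave NAD, 2 rose and 1 fell of 6 tested between MI and Sham. In that comparison 11.4% of all tested genes passed. Nnmt, which methylates nicotinamide, had 1.25, 1.44, 2.02 and 2.27 CPM in Sham, 2.92, 4.39, 4.88 and 3.75 CPM in MI and 3.60, 2.83, 3.11 and 3.43 CPM in MI + UA. Both infarcted groups lay above Sham without overlap, on 10 to 63 reads per library. Its log2 fold change was 1.17 (SE 0.26, edgeR adjusted p = 0.00478) between MI and Sham. Aox1, which oxidizes methylnicotinamide among other substrates, lay between 8.82 and 15.2 CPM in Sham and between 20.7 and 21.8 CPM in MI, with a log2 fold change of 0.80 (SE 0.14, edgeR adjusted p = 0.000764). Nudt12, which hydrolyses NADH and NAD caps of RNA, had a log2 fold change of -0.63 (SE 0.13, edgeR adjusted p = 0.00258). Fibroblast and macrophage markers rose in the same rats as Nnmt and Aox1, with their values above, and their part in these results was not tested.

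The remaining lists had few calls. None of 15 other PARP, tankyrase and ADP-ribose genes passed in any comparison (median log2 fold change 0.015 between MI and Sham), and none of the 8 kynurenine pathway genes with enough reads passed. Of the genes around Sirt1, the coactivator Ppargc1a fell (log2 fold change -0.55, edgeR adjusted p = 0.00241) and so did Prkaa2, a catalytic subunit of AMP-activated kinase (-0.33, edgeR adjusted p = 0.0159), with 7 of 9 not passing. Its upstream kinase Stk11 had log2 fold changes of -0.37 in MI vs Sham (edgeR adjusted p = 0.0718) and -0.51 in MI + UA vs Sham (edgeR adjusted p = 0.016), with -0.13 between MI + UA and MI (edgeR adjusted p = 1).

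**Figure D3:**
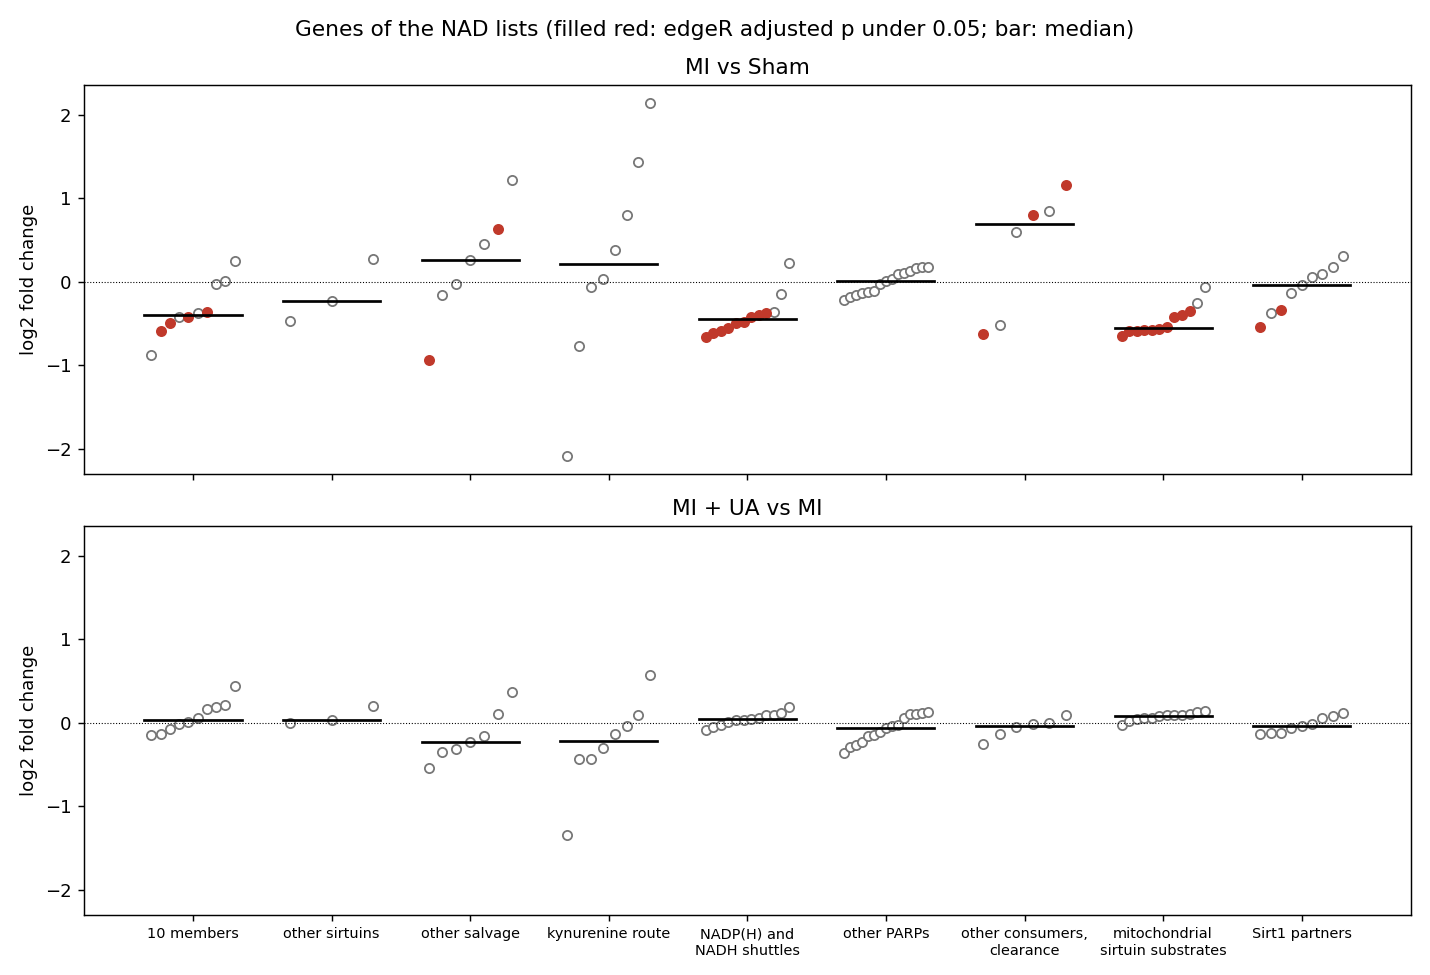
Log2 fold change (y axis) of each tested gene of the 10 genes and of the 8 wider lists, in MI vs Sham (top) and MI + UA vs MI (bottom), filled red where the edgeR adjusted p was under 0.05 and with a bar at each list's median. In MI vs Sham 9 of the 12 genes of the NADP(H) and NADH shuttle list and 10 of the 12 mitochondrial sirtuin substrates are filled below 0, and no gene is filled in MI + UA vs MI.

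**Figure D4:**
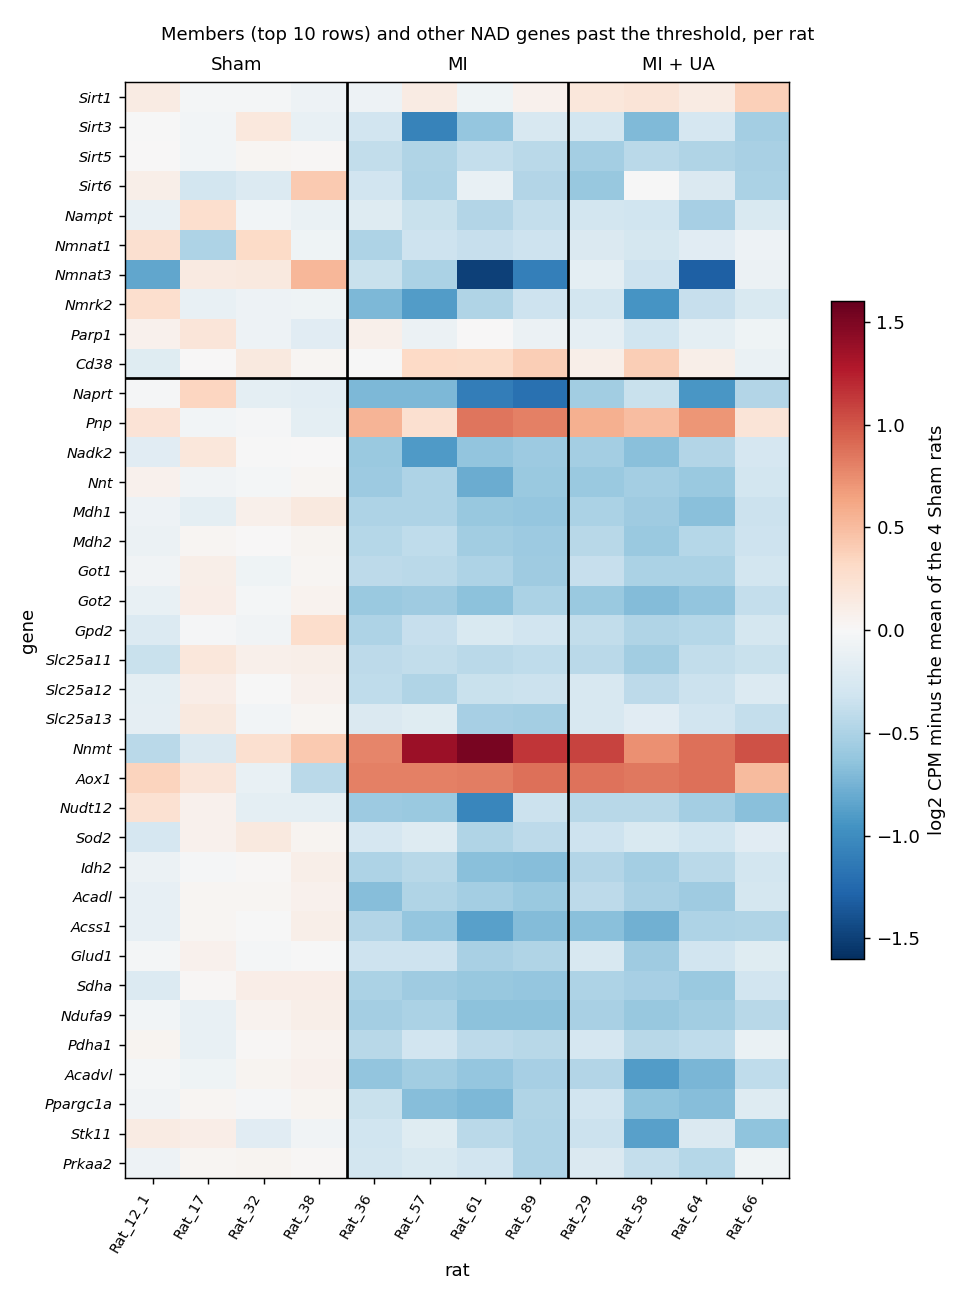
Log2 CPM of each gene (rows) in each rat (columns) minus the mean of the 4 Sham rats, from blue (lower) to red (higher), for the 10 genes and for the named genes of the wider lists that passed in any comparison. Most of these genes of the wider lists are blue in the infarcted rats, faintly so in Rat_66 for Pdha1 and Prkaa2, while Pnp, Nnmt and Aox1 are red, and Rat_66 is paler than the other MI + UA rats for Nnt and Aox1.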

How the data were processed

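The authors mapped read pairs to the rat build mRatBN7.2 (Ensembl annotation 108) with STAR 2.6.1c and counted reads with HTSeq, as the study's methods and the submitters' processing notes give, and deposited raw counts per Ensembl gene without normalization. The molecule is given as polyA RNA in the labels, but their protocol describes rRNA depletion with strand-specific libraries. Whether HTSeq used strand is not given in the sources used here, so reads from overlapping genes on opposite strands may be mixed. In the RefSeq table of GRCr8, Nmnat1 neighbours Lzic and Sirt3 neighbours Psmd13, each head to head.

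The 5 htseq summary lines were left out. Groups came from the sample labels. The 18182 genes that reached 10 counts over all libraries entered edgeR 4.0.16 (R 4.3.3; TMM, quasi-likelihood test, 3 groups in 1 fit, Benjamini-Hochberg over all genes tested), and DESeq2 1.42.0 and other settings served as alternatives. The script was tested on simulated data with 17883 genes in all, where 9 genes given no change were called. Intervals use the t quantile of that test at 95%, and the read depth of each library limits the precision of low genes.

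Named were the 10 genes and, of the wider lists, each gene that passed in any comparison, except 1 that is not reported here, with other genes named for contrast after their values were seen. The genes and lists were chosen with earlier results of these data known, so no list was tested as a set. Slc25a51, Parp4 and Rps19bp1 of the wider lists and the markers Pln and Cd4 were not matched by symbol. Promoter sequences are from RefSeq, GRCr8.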

Additional observations from a re-analysis of the deposited data

Results flagged for a closer look

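In 5 of 114 groups of 4 rats (38 genes, log2 CPM), the highest or lowest rat stood apart from the other rats by more than Dixon's 95% critical ratio of 0.829, where about 5.7 such groups would come by chance. The ratio is the gap to the nearest rat over the range of the group. Nmrk2 was highest in Rat_12_1 among Sham rats, at 26.5 CPM against 20.2 to 20.9 CPM in the other rats (ratio 0.881), and lowest in Rat_58 among MI + UA rats, at 11.4 CPM against 17.1 to 18.5 CPM (ratio 0.835). Nadk2 was lowest in Rat_57 among MI rats, at 15.7 CPM against 19.0 to 19.6 CPM (ratio 0.852). In Rat_66, the MI + UA rat whose group differs between the sources, Nnt was highest at 553 CPM against 449.6 to 464 CPM (ratio 0.843) and Aox1 lowest at 16.8 CPM against 21.3 to 21.9 CPM (ratio 0.894).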

How the results depend on the processing

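No paired analysis was possible because each rat belongs to a single group and rat numbers are not shared. Over 7 other settings (DESeq2, its size factors within edgeR, TMM without the mitochondrially encoded genes, 2 other filters, only the 2 groups compared, and Rat_66 counted as MI), 4 to 6 of the 10 genes were called in MI vs Sham, 2 to 3 in MI + UA vs Sham and 0 in MI + UA vs MI, and leaving out 1 rat gave 2 to 5, 1 to 2 and 0. Of the genes of the wider lists, a count added after seeing the data, 26 to 28, 23 to 27 and 0 were called, and 23 to 27, 17 to 24 and 0 without 1 rat. The lowest count of 2 came without Rat_61, where Sirt3 and Nampt were lost. Nmnat1 passed in MI vs Sham in 5 of the 7 settings (edgeR or DESeq2 adjusted p 0.0302 to 0.108) and Nmnat3 in 2. The log2 fold change of Sirt1 in MI vs Sham turned to -0.00065 with DESeq2, -0.0026 without mitochondrial genes in TMM and -0.0094 with only 2 groups. With Rat_66 counted as MI, the values in MI + UA vs MI turned to 0.084 for Sirt6, -0.048 for Nampt and 0.011 for Cd38. Without 1 rat, direction changed within -0.031 to 0.056 for Sirt1 and -0.083 to 0.044 for Parp1 in MI vs Sham, and within -0.057 to 0.16 for Sirt3, -0.13 to 0.076 for Sirt6 and -0.028 to 0.067 for Nampt in MI + UA vs MI. The cause of these changes was not tested.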

Other observations

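Of 10920 genes outside the 10 with a symbol and enough reads, those whose log2 CPM followed Nmrk2 most closely over the 12 libraries were Hdac11 (Pearson r 0.944), Pde4c (0.938) and Hadh (0.921), a mitochondrial dehydrogenase of beta-oxidation that uses NAD. Within groups, after each group's mean was removed, r was 0.875, 0.869 and 0.81. Those closest to Sirt3 were Mmp15 (r 0.955, within groups 0.90), Pdp2 (0.938, within groups 0.87), a phosphatase that activates pyruvate dehydrogenase, and Mitf (0.914, within groups 0.81). These are descriptions over libraries that share group and depth, picked as the highest of many.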
